A study of Mus musculus with 6 samples.

Results

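Transcripts of the receptor chains that share the common gamma chain, and of the kinases that work with them, were followed in induced T (iT) cells of mouse spleen that carried CD4 alone (single-positive, CD4SP) or CD8 alone (CD8SP). The members were 9 genes taken by name, of 23420 rows in the expression table: 7 receptor genes (Il2rg, Il2rb, Il7r, Il4ra, Il15ra, Il21r and Il9r) and 2 kinase genes (Jak1 and Jak3). Of these, 1 was called as different between the populations, beside 9.73% of all tested genes. Il9r, which encodes the interleukin-9 receptor, lay between 7.78 and 9.95 TPM (a transcript's reads divided by its length and scaled to a fixed total per library) in the CD4SP libraries and at 0.475 TPM or less in the CD8SP libraries. It passed the filter on low values through CD4SP alone and so could be called in that direction only. The other 8 genes were at 22.2 TPM or more in all 6 libraries, and none differed by 2-fold.

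The common gamma chain, encoded by Il2rg, is a subunit of the receptors for interleukin-2 (IL-2), IL-4, IL-7, IL-9, IL-15 and IL-21. Each receptor pairs it with a chain of its own, and the IL-2 and IL-15 receptors also share the chain encoded by Il2rb. JAK3 binds the common gamma chain and JAK1 binds the partner chain, and together they phosphorylate STAT factors, mainly STAT5 for IL-2, IL-7, IL-9 and IL-15, STAT6 for IL-4 and STAT3 for IL-21. T cells depend on this family: IL-7 keeps naive T cells alive, and loss of Il2rg or Jak3 blocks lymphoid development.

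The iT cells descended from mouse embryonic stem cells of a C57BL/6, CD45.2+ line (iR9) that carries a doxycycline-inducible Runx1-p2a-Hoxa9 cassette in the Rosa26 locus. Blood progenitors grown from this line were injected into sublethally irradiated B-NDG mice aged 8 to 10 weeks, a NOD strain with the Prkdc scid mutation and a null allele of Il2rg, so the hosts themselves make no working common gamma chain while the transplanted cells carry the intact gene. At week 5, aliquots of 1000 cells were sorted from spleen through gates that included CD45.2+ Ter119- CD11b- and CD4+ or CD8+. There were 3 libraries of each population, all from this cell line and host, and no T cells of unmanipulated mice are compared here. Nothing in the labels says that the 3 libraries of a population came from separate animals, though the study's text calls them biological replicates, so p-values measure the spread between these libraries, which may be technical in part. The depth of each library is unknown because TPM keeps none. In these bulk libraries, fewer cells of a type and less RNA per cell cannot be told apart.

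The libraries carried the markers of their labels. The CD4SP libraries, in the order of replicates 1 to 3, held Cd4 at 331, 281 and 279 TPM, and the CD8SP libraries at 0.104, 0 and 0 TPM. Cd8a was at 2.93, 0.319 and 2.20 TPM in CD4SP and at 1147, 1161 and 1038 TPM in CD8SP. The second CD8 coreceptor gene, Cd8b1, was at 36.0, 24.6 and 24.3 TPM in CD4SP and at 2353, 2401 and 2197 TPM in CD8SP, so it was low but not absent in CD4SP. In addition, all 5 general T cell markers (Cd3e, Cd3d, Cd3g, Cd247 and Lck) were above 34 TPM in every library. Between 9971 and 10649 genes reached 1 TPM in a library. Over all tested genes, the median log2 fold change of TPM + 1 between CD4SP and CD8SP was 0.284, and median-of-ratios rescaling moved it to 0.00. For single genes whose fold change is printed, the value after rescaling is therefore given wherever it changes a direction or a call. CD4SP replicate 2 stood apart, with a median absolute log2 difference of 0.297 and 0.313 from the other CD4SP libraries and of 0.296 to 0.350 from the CD8SP libraries. Its correlation across genes was still higher with CD4SP (r = 0.955 and 0.958) than with CD8SP (0.917 to 0.923), and without it 1280 genes were called in place of 1019. Calls required a limma adjusted p under 0.05 together with more than a 2-fold difference. Fold changes above 0 are those with the higher level in CD4SP.

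Il9r lies on the minus strand of chromosome 11 (chr11:32187541-32200279, GRCm38) and is the gene with the clearest difference among the members. Il2ra (chr2:11642807-11693193, plus strand), which encodes the alpha chain of the IL-2 receptor, was called higher in CD4SP among the other genes of the pathway, and Il2rg (chrX:101264378-101268255, minus strand) was the most abundant member in both populations. The 250 bases before the start site of these 3 genes are shown so that the regulatory sequence can be read beside the levels. They are RefSeq sequences on GRCm38.p6, written 5′ to 3′ on the strand of the gene, at chr11:32200280-32200529 for Il9r, chr2:11642542-11642791 for Il2ra and chrX:101268256-101268505 for Il2rg. None of the 3 windows overlaps an annotated exon of its own gene, and exons of other genes were not checked. Capitals mark matches to TGTGGT, the core letters bound by RUNX factors, or to CCGGAA or AGGAAG, core letters bound by ETS factors, on either strand, so that CTTCCT is AGGAAG read on the other strand.
Il9r: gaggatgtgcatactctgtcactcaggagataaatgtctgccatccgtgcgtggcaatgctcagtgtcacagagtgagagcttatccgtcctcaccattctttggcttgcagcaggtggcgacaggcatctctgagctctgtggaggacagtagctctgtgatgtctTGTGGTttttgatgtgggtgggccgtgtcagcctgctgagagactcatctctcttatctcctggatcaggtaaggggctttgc
Il2ra: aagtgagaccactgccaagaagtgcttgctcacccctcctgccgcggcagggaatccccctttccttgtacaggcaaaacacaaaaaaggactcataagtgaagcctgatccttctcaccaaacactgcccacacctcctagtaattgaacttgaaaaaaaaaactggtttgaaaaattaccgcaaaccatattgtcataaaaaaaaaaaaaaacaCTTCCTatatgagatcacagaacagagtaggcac
Il2rg: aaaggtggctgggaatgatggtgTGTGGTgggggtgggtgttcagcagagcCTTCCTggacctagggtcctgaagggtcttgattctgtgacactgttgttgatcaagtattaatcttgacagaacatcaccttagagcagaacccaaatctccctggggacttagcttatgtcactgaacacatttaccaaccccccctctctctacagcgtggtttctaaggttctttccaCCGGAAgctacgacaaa

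The Il9r window held 1 match, TGTGGT at -83 to -78 from the start site. In the Il2ra window, AGGAAG on the reverse strand at -34 to -29 was the only match. The Il2rg window held 3, TGTGGT at -227 to -222, AGGAAG on the reverse strand at -199 to -194 and CCGGAA at -17 to -12. These letters are frequent: TGTGGT was in 14% of 32851 RefSeq windows of the same length, CCGGAA in 12% and AGGAAG in 29.5%. The STAT5 letters TTCNNNGAA were in 7.02% of windows and in none of these 3. Among the other member windows, which are not shown, that of Il7r held them, as TTCAGGGAA at -142 to -134. A match describes the letters in the window and is no evidence of binding. RefSeq windows were matched for 8 of the 9 members, all but Il2rb.

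The order of the levels was the same in both populations. On the TPM scale, which is per length, Il2rg came first, followed by Il7r, Jak1, Il2rb, Jak3, Il21r, Il4ra, Il15ra and Il9r. In CD8SP libraries the ranges of neighbours in this order did not overlap. In CD4SP libraries the ranges overlapped for Il2rb with Jak3 and for Il4ra with Il15ra, so the order within those 2 pairs is not separated from the spread between libraries. Il2rg was above 98.8% of tested genes in CD4SP and 98.6% in CD8SP, whereas Il9r was above 30.3% and 0.802%.

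**Figure D1:**
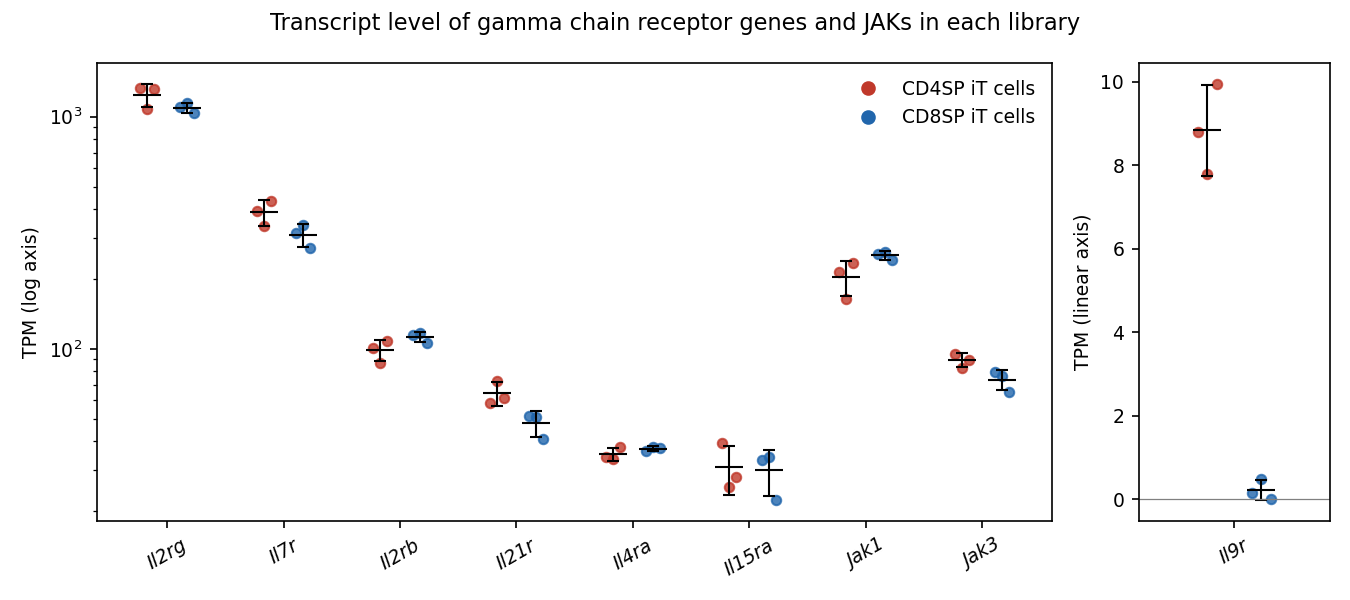
TPM of each member in each library, on a log axis for 8 genes at left and on a linear axis for Il9r at right; points are libraries, horizontal lines are means and bars are SD (n = 3 per population). Il2rg sits highest, the 2 populations lie close together for the 8 genes at left, and only Il9r shows a wide gap, with CD4SP libraries from 7.78 to 9.95 TPM and CD8SP libraries from 0 to 0.475 TPM.

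Il2rg, the shared signalling subunit, was measured at 1331, 1082 and 1320 TPM in CD4SP replicates 1 to 3 and at 1096, 1147 and 1041 TPM in CD8SP. The populations overlapped, since CD4SP replicate 2 fell among the CD8SP libraries. Means were 1244 ± 141 TPM (SD, n = 3) and 1095 ± 53.1 TPM (SD, n = 3). On the log2 scale the difference was 0.18 (95% interval -0.083 to 0.44, limma adjusted p = 0.288), and it turned to -0.13 after median-of-ratios rescaling (limma adjusted p = 0.397). After quantile normalization the difference was 0.23 (limma adjusted p = 0.210). An annotated gene, Gm20489, shares 730 nt with Il2rg at 100% identity on the same strand and has no value here, so reads of the shared stretch could belong to either.

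Il7r encodes the IL-7 receptor alpha chain, the partner through which naive T cells receive survival signals (chr15:9505788-9530176, minus strand). Its levels were 391.9, 338 and 434 TPM in CD4SP and at 316, 342 and 271 TPM in CD8SP. Here too CD4SP replicate 2 lay within the CD8SP range, and the other 2 CD4SP libraries lay above it. The log2 fold change was 0.32 (95% interval 0.012 to 0.64, limma adjusted p = 0.124). After rescaling it was 0.017 (limma adjusted p = 0.933). Without CD4SP replicate 2, limma's adjusted p was 0.0393 for Il2rg and 0.0410 for Il7r, with log2 fold changes of 0.28 and 0.42, still under 2-fold.

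Il2rb, the chain shared by the IL-2 and IL-15 receptors (chr15:78479256-78495271, minus strand), stood at 101, 87.3 and 108 TPM in CD4SP and at 114, 117 and 106 TPM in CD8SP. CD4SP replicate 3 overlapped the CD8SP range and the other 2 CD4SP libraries were below it. Its log2 fold change of -0.19 (95% interval -0.48 to 0.098) did not pass the test (limma adjusted p = 0.304). The adjusted p depended on the scaling. After median-of-ratios rescaling the value was -0.50 (limma adjusted p = 0.00855) and after quantile normalization -0.42 (limma adjusted p = 0.0204), in the same direction and under 2-fold. With ribosomal protein genes removed it was -0.35 (limma adjusted p = 0.0563). Without CD4SP replicate 2, the lowest library for Il2rb, it shrank to -0.11 (limma adjusted p = 0.422).

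Il15ra encodes the high-affinity chain that binds and presents IL-15. It was at 39.2, 25.3 and 28.1 TPM in CD4SP and at 33.3, 34.2 and 22.2 TPM in CD8SP, and the ranges overlapped. The log2 fold change of 0.044 (95% interval -0.48 to 0.57, limma adjusted p = 0.905) had the widest interval among the 8 genes other than Il9r, and its sign changed to -0.25 after either rescaling or quantile normalization. Neither a difference nor its absence can be read from a gene with so wide an interval.

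Il4ra, the IL-4 receptor alpha chain, also serves the IL-13 receptor. Levels were 34.0, 33.4 and 37.6 TPM in CD4SP and at 36.2, 37.9 and 37.4 TPM in CD8SP. The ranges overlapped through CD4SP replicate 3. The log2 fold change was -0.084 (95% interval -0.39 to 0.22, limma adjusted p = 0.680), and -0.38 after rescaling (limma adjusted p = 0.0649). An annotated gene on the opposite strand, Gm44876, overlaps exons of Il4ra over 571 nt, and whether the counting used strand is not stated.

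Il21r, the chain specific to IL-21, was measured at 58.4, 72.7 and 61.6 TPM in CD4SP and at 51.5, 50.9 and 40.8 TPM in CD8SP. All 3 CD4SP libraries lay above all 3 CD8SP libraries. A log2 difference of 0.42 (95% interval 0.072 to 0.78) was short of the threshold in limma (adjusted p = 0.0838), and it dropped to 0.12 after rescaling (limma adjusted p = 0.667). Il21r and Il4ra are neighbours on chromosome 7 (chr7:125603429-125633570 and chr7:125552120-125579474, both on the plus strand), 23954 nt apart with 0 annotated genes between them.

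Il9r was measured at 8.78, 7.78 and 9.95 TPM in CD4SP and at 0.157, 0.475 and 0 TPM in CD8SP. The populations were far apart, and the gene passed the filter on low values only through the CD4SP libraries, 3 of which reached 1 TPM against 0 of the CD8SP libraries. The log2 fold change of TPM + 1 was 3.04 (SE 0.263, 95% interval 2.44 to 3.64, limma adjusted p = 0.000221), a value above that of 99.5% of tested genes. With a pseudocount of 0.1 it was 5.18 (limma adjusted p = 0.00231), so the size of the difference depends on the pseudocount, as it does for any gene near 0 in a population.

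The genes whose profile over the 6 libraries was most like that of Il9r were Tbc1d4, Ikzf2 and Emp1, by root mean square difference of centred log2(TPM + 1) among 8248 genes with a mean of at least 5 TPM. The distances were 0.130 for Tbc1d4, 0.159 for Ikzf2 and 0.172 for Emp1. Ikzf2 encodes Helios, a transcription factor frequent in regulatory T cells. It was at 44.9, 35.6 and 48.3 TPM in CD4SP and at 5.28, 5.89 and 4.76 TPM in CD8SP. Tbc1d4, which encodes a GTPase-activating protein of vesicle traffic, was at 35.9, 28.6 and 48.1 TPM in CD4SP and at 3.58, 5.21 and 3.05 TPM in CD8SP. Emp1, a membrane protein gene, was at 17.6, 18.1 and 28.2 TPM in CD4SP and at 1.58, 2.88 and 1.48 TPM in CD8SP. These genes were selected for likeness to Il9r in the same libraries, so their pattern is a description.

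Markers of regulatory T cells moved with Il9r. Of the 5 listed, Il2ra, Ctla4, Ikzf2 and Ikzf4 were called higher in CD4SP, and the summed level of the list ranged from 955 to 1246 TPM in CD4SP and from 146 to 172 TPM in CD8SP. Most of that sum was Ctla4 alone, at 814 to 937 TPM in CD4SP and 124 to 150 TPM in CD8SP. The lineage factor Foxp3 was not called, at 142, 6.56 and 167 TPM in CD4SP and at 7.48, 7.48 and 10.05 TPM in CD8SP. In CD4SP replicate 2, where Foxp3 was at the CD8SP level, Il9r was at 7.78 TPM and the other 4 markers of the list were at 92.0 TPM (Il2ra), 814 TPM (Ctla4), 35.6 TPM (Ikzf2) and 7.02 TPM (Ikzf4). The part of regulatory T cells in the Il9r difference was not tested.

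Among markers of other blood cells, Lyz2 of the myeloid list was called higher in CD4SP (summed list 17.1 to 31.3 TPM against 3.64 to 8.66 TPM), with S100a8 and S100a9 at 0 in all libraries. Itgax of the dendritic list was called higher in CD8SP and passed the filter through CD8SP alone, while the summed list went from 3.86 to 8.01 TPM in CD4SP and from 20.7 to 22.7 TPM in CD8SP, with Clec9a at 0. Klrb1c and Eomes of the NK list were also called higher in CD8SP, where the summed list was 55.1 to 64.5 TPM against 9.88 to 11.998 TPM in CD4SP, with Ncr1, Klra8 and Klra4 at 0. Most of that sum was Eomes, at 49.9 to 55.4 TPM in CD8SP and 8.19 to 10.6 TPM in CD4SP. Eomes acts in CD8 T cells as well as in NK cells, so the sum is not specific to NK cells. The list of 4 B cell genes ran from 14.5 to 20.05 TPM in CD4SP and from 20.03 to 23.3 TPM in CD8SP with Ms4a1 and Pax5 at 0, and the erythroid list stayed at 0.129 TPM or less. The part of such cells in the members' values was not tested.

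Jak1, the kinase bound to the partner chains (chr4:101152367-101265282, minus strand), was at 215, 164 and 233 TPM in CD4SP and at 257, 262 and 241 TPM in CD8SP. All CD4SP libraries lay below all CD8SP libraries. The log2 fold change was -0.32 (95% interval -0.65 to 0.0087, limma adjusted p = 0.144). It became -0.63 after median-of-ratios rescaling (limma adjusted p = 0.00484), -0.50 after quantile normalization (limma adjusted p = 0.0194) and -0.48 once 85 ribosomal protein genes were removed (limma adjusted p = 0.0333). The value of Jak1 was thus negative on the deposited TPM and in these 3 alternatives, past the adjusted p threshold in the alternatives alone and under 2-fold in each. Without CD4SP replicate 2, the lowest library for Jak1, it shrank to -0.18 (limma adjusted p = 0.175).

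Jak3, the kinase of the common gamma chain (chr8:71676296-71690575, plus strand), was at 95.3, 83.0 and 89.7 TPM in CD4SP and at 79.5, 76.2 and 65.2 TPM in CD8SP. The CD4SP libraries all lay above the CD8SP libraries. The log2 difference was 0.28 (95% interval -0.024 to 0.58, limma adjusted p = 0.164), and it was -0.026 after rescaling (limma adjusted p = 0.894), so the gap between the raw TPM values was about the size of the shift over all genes. Exons of Jak3 overlap those of Insl3 on the same strand over 404 nt, and Insl3 was at 0.505 TPM or less.

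Counted together, 1 of the 9 members was called, higher in CD4SP, against 9.73% of all 10476 tested genes (1019 genes), of which 7.92% were higher in CD4SP and 1.8% in CD8SP. A count of 1 in 9 is close to that background. Its only gene, Il9r, passed the filter on low values through CD4SP alone and so could be called in that direction only. The 8 members at 1 TPM or more in every library had a median log2 fold change of 0.11, beside 0.284 for all tested genes. That set leaves out Il9r through its own CD8SP levels, and the 10476 tested genes met a looser filter. After median-of-ratios rescaling, Il2rg (-0.13), Il15ra (-0.25) and Jak3 (-0.026) fell below 0, beside Il2rb (-0.50), Il4ra (-0.38) and Jak1 (-0.63). Il7r (0.017) and Il21r (0.12) stayed above 0. The balance of all calls depended on the scaling, with 81.5% of them higher in CD4SP on the deposited TPM and 62.0% after median-of-ratios rescaling.

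**Figure D2:**
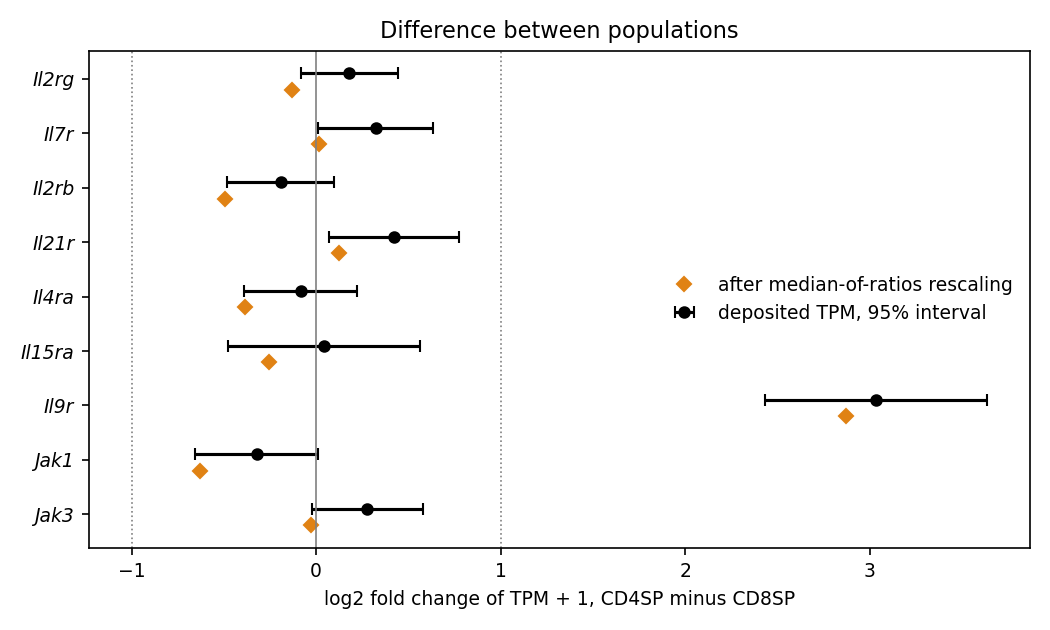
Log2 fold change of TPM + 1, CD4SP minus CD8SP, for each member; black circles with bars are the deposited TPM with 95% intervals (limma, n = 3 per population), orange diamonds the same after median-of-ratios rescaling, and dotted lines mark 2-fold. Only Il9r lies beyond 2-fold, at 3.04, and rescaling shifts the other members to lower values, with Jak1 and Il2rb furthest to the left.

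Ratios between transcripts of the same library are untouched by any scaling of the whole library, so they show how the receptor family is composed in each population. They were chosen after the members' values were seen and are given as a description. The ratio of Il7r to Il2rb was 3.87, 3.87 and 4.03 in CD4SP and 2.76, 2.93 and 2.55 in CD8SP. The ratio of Jak1 to Jak3 was 2.26, 1.98 and 2.60 in CD4SP and 3.23, 3.44 and 3.69 in CD8SP. The first ratio was thus higher and the second lower in CD4SP, with no overlap between populations in either. The ratio of Il7r to Jak1 was 1.82, 2.05 and 1.86 in CD4SP and 1.23, 1.31 and 1.13 in CD8SP, which again did not overlap.

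Among the 28 pairs that the 8 expressed members can form, 14 (50%) had ratios that did not overlap between populations, against 36.9% of all pairs of the 9148 genes at 1 TPM or more in every library. Pairs share genes and are not independent. Jak1 took part in 6 of the 14, Il2rb and Il4ra in 5 each, Il2rg, Il7r, Il21r and Jak3 in 3 each, and Il15ra in 0.

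The proportion of the common gamma chain to its partners did not separate the populations. Il2rg divided by the sum of Il2rb, Il7r, Il4ra, Il21r and Il9r gave 2.24, 2.01 and 2.03 in CD4SP and 2.12, 2.09 and 2.28 in CD8SP, with means of 2.09 ± 0.129 (SD, n = 3) and 2.16 ± 0.104 (SD, n = 3) and overlapping ranges. Within that sum, Il7r made up 65.1% ± 2.15 (SD, n = 3) in CD4SP and 61.0% ± 1.45 (SD, n = 3) in CD8SP. Il2rb made up 16.6% ± 0.416 (SD, n = 3) in CD4SP and 22.2% ± 1.03 (SD, n = 3) in CD8SP. Il7r was thus the main partner transcript in both populations, and Il2rb had the larger share in CD8SP. Il9r was 1.48% ± 0.0423 (SD, n = 3) of the partner sum in CD4SP, so the called gene was also the rarest partner. Of the summed Jak1 and Jak3 transcripts, Jak3 was 30.7% ± 2.88 (SD, n = 3) in CD4SP and 22.5% ± 1.17 (SD, n = 3) in CD8SP.

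**Figure D3:**
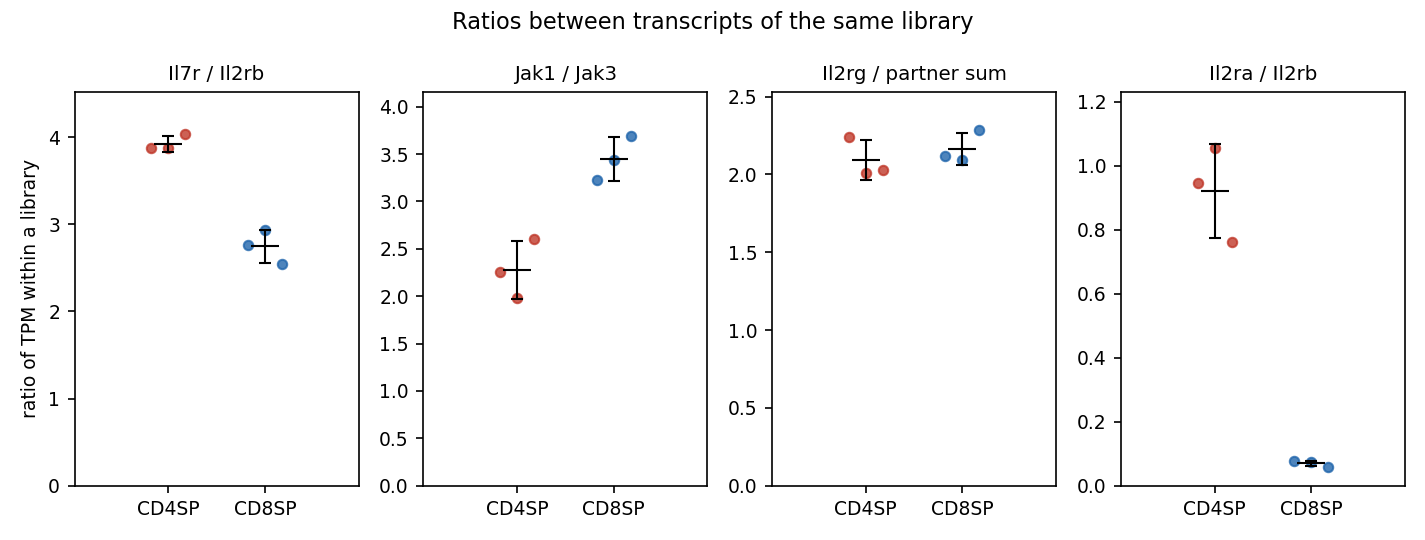
Ratio of TPM between transcripts of the same library for Il7r to Il2rb, Jak1 to Jak3, Il2rg to the sum of 5 partner chains, and Il2ra to Il2rb; points are libraries, horizontal lines means and bars SD (n = 3 per population), and each axis starts at 0. The populations are apart for Il7r to Il2rb, Jak1 to Jak3 and Il2ra to Il2rb, and overlap for Il2rg to its partners at 2.09 and 2.16.

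The other genes of the pathway were taken as 9 lists of 54 genes, of which 44 passed the filter on low values. Of those, 11 were called higher in CD4SP, 3 were called higher in CD8SP and 30 were not called, beside 7.92% and 1.8% of all tested genes in the 2 directions. Their median log2 fold change was 0.62, beside 0.284 over all tested genes. Il4 and Il15 passed the filter only through CD4SP and are listed at 0 in CD8SP, and since both lie above the median, their fitted size does not set it. Their inclusion still counts toward the median and toward the 11 calls, and neither was computed without them. The summed markers of regulatory T cells, which are mostly Ctla4 and include Il2ra, were also higher in every CD4SP library, as given above. The part of regulatory T cells in these calls was not tested.

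Of 8 ligand genes, 3 passed the filter and were called, of which Il4 and Il15 passed through CD4SP alone and so could be called in that direction only. Il2, the T cell growth factor, was at 10.97, 17.7 and 11.1 TPM in CD4SP and at 3.45, 3.37 and 1.02 TPM in CD8SP (log2 fold change 2.03, limma adjusted p = 0.00593). Il4 was at 8.16, 6.62 and 4.499 TPM in CD4SP and listed at 0 in each CD8SP library (limma adjusted p = 0.000409). Il15 was at 4.37, 2.99 and 1.54 TPM in CD4SP and likewise listed at 0 in CD8SP (limma adjusted p = 0.00619). All 3 were thus low but present in every CD4SP library. Below the filter, Il21 was at 2.29, 0.918 and 3.47 TPM, Il13 at 1.56, 0 and 1.53 TPM and Il7 at 0, 0 and 1.48 TPM in CD4SP, each listed at 0 in CD8SP. Il9, the ligand of the called receptor, and Tslp, which signals through Il7r paired with Crlf2, were listed at 0 in all 6 libraries.

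Among partner chains outside the members, Il2ra turns the intermediate-affinity IL-2 receptor of Il2rb and Il2rg into the high-affinity form. It was at 95.7, 92.0 and 82.1 TPM in CD4SP and at 8.77, 8.46 and 6.31 TPM in CD8SP (log2 fold change 3.37, limma adjusted p = 1.28e-05). The ratio of Il2ra to Il2rb was 0.946, 1.05 and 0.763 in CD4SP and 0.0766, 0.0725 and 0.0594 in CD8SP. The alpha chain transcript was therefore near the level of the beta chain in CD4SP and far below it in CD8SP. Il15ra, the homologue of Il2ra, starts 12096 nt beyond it on chromosome 2 (chr2:11705290-11734317, plus strand) with 0 annotated genes between them. Crlf2, the TSLP receptor chain, was at 23.8, 27.4 and 28.9 TPM in CD4SP and at 21.5, 14.6 and 14.8 TPM in CD8SP and was not called (log2 fold change 0.64, limma adjusted p = 0.0490). Its log2 fold change after rescaling was 0.35 (limma adjusted p = 0.262). Il13ra1, which pairs with Il4ra for IL-13, stayed at 0.272 TPM or less.

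Of the JAKs that do not serve this family as JAK1 and JAK3 do, neither was called. For Jak2 the log2 fold change was 0.73 (limma adjusted p = 0.0297), and for Tyk2 it was 0.62 (limma adjusted p = 0.0311), both under 2-fold. After rescaling, Jak2 was at 0.43 (limma adjusted p = 0.127) and Tyk2 at 0.32 (limma adjusted p = 0.161). The STAT5 genes were at log2 fold changes of 0.73 for Stat5a (limma adjusted p = 0.0247) and 0.90 for Stat5b (limma adjusted p = 0.00671), Stat3 was at 0.60 (limma adjusted p = 0.0294) and Stat6 at 0.54 (limma adjusted p = 0.0428). None of these 4 STAT genes reached 2-fold, and after rescaling Stat5b alone of them stayed under the adjusted p threshold (0.60, limma adjusted p = 0.0384).

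Of the 8 negative regulators, 3 were called, all higher in CD4SP. Cish, a STAT5-induced inhibitor of cytokine signalling, was at 617, 477 and 535 TPM in CD4SP and at 150, 141 and 115 TPM in CD8SP (log2 fold change 1.999, limma adjusted p = 8.5e-05). Socs2, of the same family, was at 66.2, 76.5 and 63.9 TPM in CD4SP and at 9.31, 6.56 and 8.78 TPM in CD8SP (log2 fold change 2.93, limma adjusted p = 2.91e-05). Both kept a large gap between populations in every library and after rescaling, at 1.69 and 2.64. Exons of Cish overlap 2 annotated genes on the opposite strand, Gm17040 and Gm17041. Socs1, which inhibits JAKs directly, was near the threshold (log2 fold change 1.02, limma adjusted p = 0.0329) and lost the call after rescaling (0.72, limma adjusted p = 0.158). The phosphatase gene Ptpn6 went the other way without a call, at -0.67 (limma adjusted p = 0.0162).

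The STAT5 and survival targets were split, with calls in each direction, 2 of 7 toward CD4SP and 2 toward CD8SP, or 1 and 2 after rescaling. Bcl2, the survival factor that IL-7 maintains, was at 96.3, 117 and 99.7 TPM in CD4SP and at 218, 236 and 191 TPM in CD8SP (log2 fold change -1.03, limma adjusted p = 0.00153). The kinase gene Pim2 was at 54.7, 49.9 and 50.05 TPM in CD4SP and at 106, 103 and 124 TPM in CD8SP (log2 fold change -1.09, limma adjusted p = 0.00104). Its relative Pim1 was called in the opposite direction (log2 fold change 1.26, limma adjusted p = 0.00285) but fell under 2-fold after rescaling (0.97) and after quantile normalization (0.90), and its call was lost. Also called higher in CD4SP was Osm, which encodes the cytokine oncostatin M (log2 fold change 1.71, limma adjusted p = 0.00294). The survival genes Mcl1 (log2 fold change 0.62, limma adjusted p = 0.0111) and Bcl2l1 (0.46, limma adjusted p = 0.0708) were not called. After rescaling, Mcl1 was at 0.31 (limma adjusted p = 0.0560).

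Of 6 genes for factors that regulate receptor genes, Eomes was the only call. Eomes, which drives Il2rb in CD8 T cells and NK cells, was at 10.6, 9.20 and 8.19 TPM in CD4SP and at 51.4, 55.4 and 49.9 TPM in CD8SP (log2 fold change -2.37, limma adjusted p = 5.52e-05). Foxo1, an activator of Il7r, stayed under 2-fold at 0.65 on the log2 scale (limma adjusted p = 0.0068). After rescaling, Foxo1 was at 0.34 (limma adjusted p = 0.0539). Gfi1, a repressor of Il7r, was at 24.4, 28.6 and 29.3 TPM in CD4SP and at 15.6, 0.479 and 10.6 TPM in CD8SP and was not called. Ets1 was at 230, 3.23 and 2.94 TPM in CD4SP and at 101, 108 and 105 TPM in CD8SP. For Ets1 and Gfi1 the libraries of a population disagreed by many-fold, so neither gives a stable value.

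None of the 3 adaptor genes that passed the filter (Shc1, Grb2 and Pik3r1) was called. Of 9 tested genes for other receptors that use JAK1, 2 were called higher in CD4SP. Ifngr2, a chain of the interferon-gamma receptor, was at 9.22, 16.3 and 8.75 TPM in CD4SP and at 0.9002, 2.01 and 1.27 TPM in CD8SP (log2 fold change 2.35, limma adjusted p = 0.00158). Il6ra, the IL-6 receptor alpha chain, was at 11.1, 6.32 and 8.30 TPM in CD4SP and at 4.53, 3.76 and 2.85 TPM in CD8SP (log2 fold change 1.01, limma adjusted p = 0.0302) and lost the call after rescaling (0.75, limma adjusted p = 0.0618). Lifr and Osmr were listed at 0 in all libraries.

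**Figure D4:**
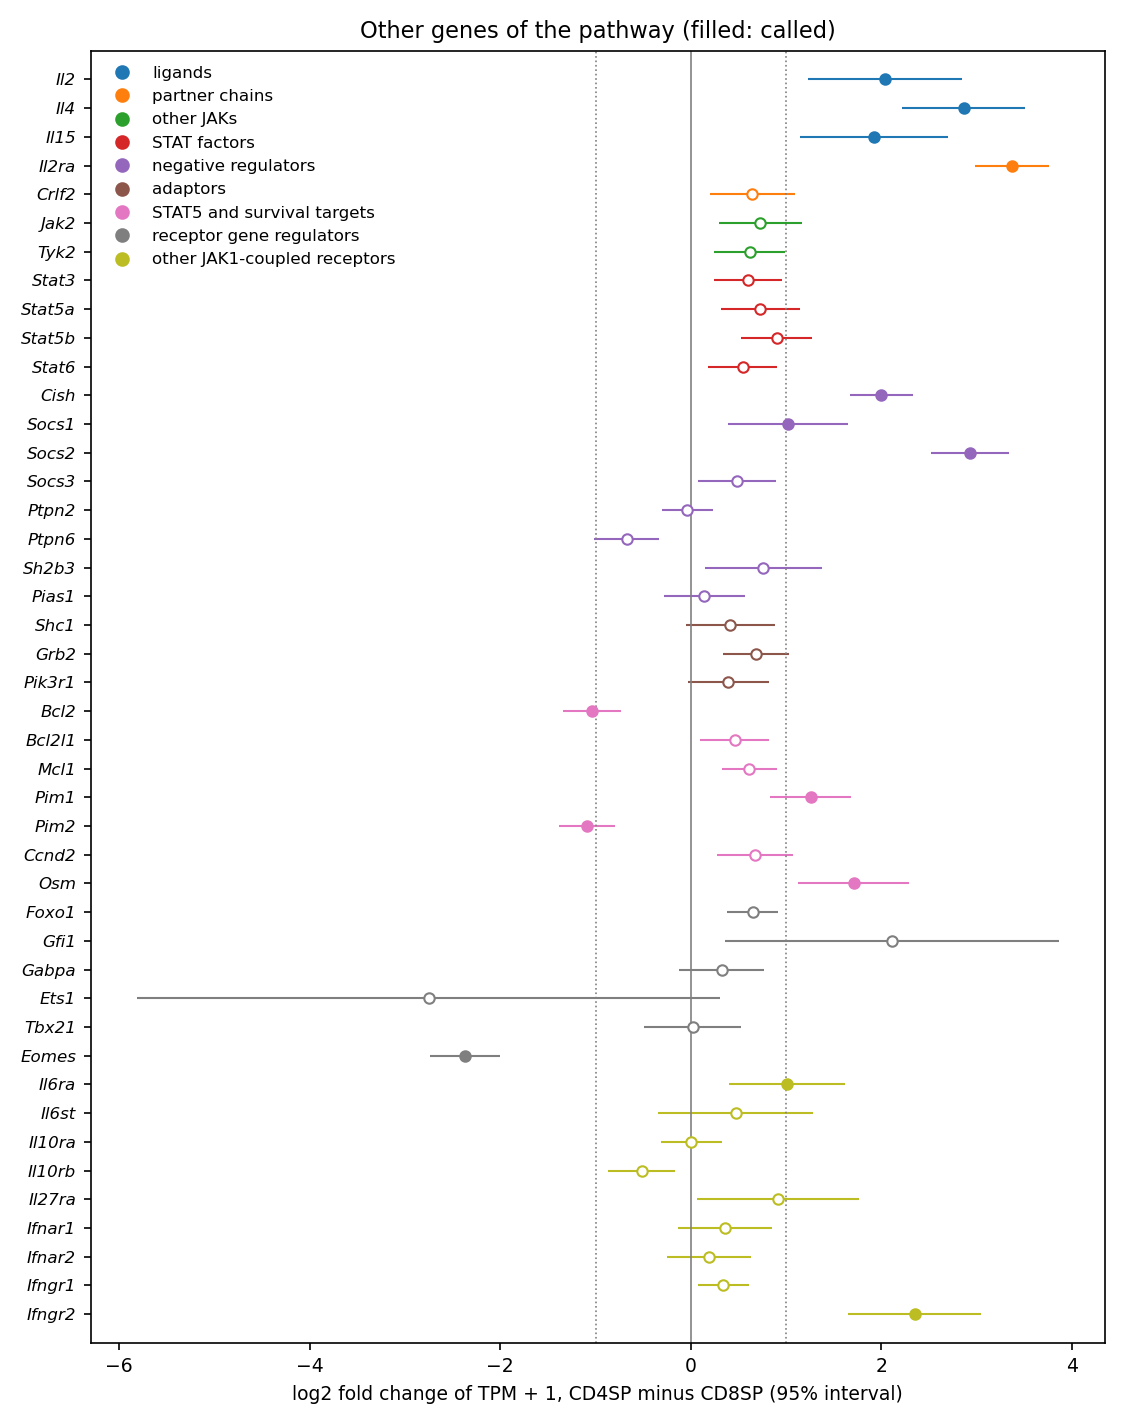
Log2 fold change of TPM + 1, CD4SP minus CD8SP, for the 44 tested genes of the pathway outside the members, grouped by list; bars are 95% intervals (limma, n = 3 per population), filled circles are called genes and dotted lines mark 2-fold. The called genes on the right include Il2ra at 3.37 and Socs2 at 2.93, and those on the left are Eomes at -2.37, Pim2 at -1.09 and Bcl2 at -1.03.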

How the data were processed

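Polyadenylated RNA of 3 CD4SP and 3 CD8SP aliquots of sorted iT cells was measured. Reverse-transcribed RNA was amplified over the whole transcriptome and tagmented into libraries for a NextSeq instrument. The authors mapped reads to mm10 by HISAT2 and deposited StringTie estimates of gene expression as TPM. Whether strand was used or duplicates removed is not given in the sources used here. TPM scales each library to a fixed total and keeps no depth, so no interval for counting error was computed.

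Genes at 1 TPM or more in at least 3 libraries (10476 genes) were fitted as log2(TPM + 1) with limma 3.58.1 in R 4.3.3 (eBayes with trend), with population as the only term and Benjamini-Hochberg adjustment over all of them. This scale understates the change of low genes. The call required an adjusted p under 0.05 and 2-fold. The fit was tested on simulated data. The members, gene lists, promoter motifs and marker lists were chosen with earlier results of these data known. All 9 members are named, as are the pathway genes that were called, all tested ligands and partner chains and 4 STATs, and the 3 genes nearest to a called member. Other genes and the ratios were named after their values were seen. Some further genes of the pathway are not reported here. Gene positions follow GENCODE M21 (GRCm38, the assembly of mm10). Alternatives were a pseudocount of 0.1, other filters, median-of-ratios rescaling, quantile normalization, removal of ribosomal protein genes, no trend, a replicate block, adjusted p alone, averaging CD8SP replicates 1 and 2, and leaving out each library.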

Additional observations from a re-analysis of the deposited data

How the results depend on the processing

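The number of members called was 1 under every alternative tried, and that member was Il9r, whose log2 fold change ranged from 2.91 to 3.19 on leaving out each library in turn and from 2.74 to 5.18 under the other alternatives. Of 135 refits of single members, 128 kept the direction and the call (adjusted p and 2-fold together) and 7 reversed. By adjusted p alone, Il2rb and Jak1 after rescaling and quantile normalization, Jak1 without ribosomal protein genes, and Il2rg and Il7r without CD4SP replicate 2 came under 0.05. The reversals were Il2rg at -0.13, Il15ra at -0.25 and Jak3 at -0.026 after median-of-ratios rescaling, Il15ra at -0.25 after quantile normalization and -0.11 without ribosomal protein genes, and Il15ra at -0.14 without CD4SP replicate 1 and -0.15 without CD8SP replicate 3 (range -0.15 to 0.17 on leaving out each library); the cause was not tested. With the adjusted p alone and no fold threshold, 27 pathway genes rather than 14 and 2183 genes in all rather than 1019 were called. The pathway count was 11 after median-of-ratios rescaling and 11 after quantile normalization. All calls were higher in CD4SP in 62.0%, 57.1% and 72.6% of cases after rescaling, quantile normalization and removal of ribosomal protein genes.

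Replicate numbers are shared by the populations, but nothing says that they mark a shared mouse. Deviations of same-numbered libraries correlated with a mean r of 0.0411 (-0.0168 to 0.0887), against -0.0208 for other pairs. With the replicate block, 1 member (Il9r, log2 fold change 3.04, limma adjusted p = 0.000927), 15 pathway genes and 997 genes in all were called, and Foxp3 (log2 fold change 2.61, limma adjusted p = 0.0438) and Gfi1 (2.11, limma adjusted p = 0.0494) passed both thresholds. CD8SP replicates 1 and 2 were the most alike libraries (median absolute log2 difference 0.0750 against 0.1697 to 0.313 for other pairs within a population), and averaging them left the member count at 1. Unknown depth limits the genes near 0, Il9r in CD8SP among them.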
